A study of Mus musculus with 36 samples.

Results

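The ileal mucosa of mice colonised by a single bacterial strain, E. coli CEC, was compared with that of germfree mice. All 9 samples labelled E. coli CEC and all 9 labelled germfree were taken, 18 of the 36 samples of the series. The labels class the CEC samples as mono-associated, with the number 21 for colonisation and no unit, and the germfree samples as the control. They do not expand the abbreviation CEC, and they give neither genotype, mouse strain, sex nor age. The series' design text speaks of pooled RNA from several mice while the titles carry individual numbers, so it is unclear whether a sample is 1 mouse, and p-values measure only the spread between these samples.

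Germfree mice are raised without any microbes, and mono-association adds one known strain to such animals, so that what follows in the gut wall can be set against an otherwise sterile state. The ileum is the last part of the small intestine. Its lining absorbs bile acids and nutrients, secretes mucus and antimicrobial proteins, and holds many immune cells, and its transcripts are known to respond to gut bacteria. Transcripts were measured by real-time PCR with 224 TaqMan assays per sample. Each assay gives a Ct, the PCR cycle at which the fluorescence crosses a threshold, and 1 cycle less stands for about a doubling of template. The deposited table gives only the catalogue ID of each assay and pairs none with a gene, and 0 of the 224 IDs were found in the gene table at hand. Genes are therefore not named, and the labelled tissue was not checked against marker genes.

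The log2 relative level used below is the average Ct of the 183 assays with a Ct in every one of the 18 samples minus the Ct of the assay, so that higher means more transcript relative to the panel. In bulk mucosa, fewer cells of a type and less RNA per cell cannot be told apart. Over those 183 assays the Ct averaged 21.3 ± 0.251 (SD, n = 9) with CEC and 21.5 ± 0.13 (SD, n = 9) in germfree samples (exact permutation test, two-sided, p = 0.261). Without CEC replicate 7 the CEC mean was 21.3 ± 0.18 (SD, n = 8), 0.172 cycles below germfree (exact permutation p = 0.0388). A Ct was obtained for 214 to 218 assays in the germfree samples and for 215 to 221 in 8 of the CEC samples. CEC replicate 6 gave only 198. Of its 26 undetermined wells 25 lay in the first 112 rows of the table, and 20 belonged to assays with a median Ct under 25 in the CEC samples other than replicates 6 and 7, well before the last Ct of 31.91.

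CEC replicate 7 differed from the rest of its group across much of the panel. Its median absolute deviation from the other 8 CEC samples was 1.10 log2 units, against 0.214 to 0.36 in those 8, each set against its fellows, and 0.175 to 0.462 in the germfree samples. It lay more than 3 log2 units from the CEC median in 34 of the 215 assays compared, 23 lower and 11 higher. No other CEC sample did so in more than 5 assays, and no germfree sample in more than 3. The 23 low assays had a median log2 relative level of 1.29 in the other CEC samples and of -2.71 in CEC replicate 7. The 11 high assays had one of -3.0 in the others and of 1.24 in it. In 31 of the 34 it lay outside the range of the other 35 samples of the series. Across assays its Pearson r with the germfree mean was 0.751 (207 assays of 1 panel), while the other CEC samples had 0.934 to 0.987 and the germfree samples 0.969 to 0.993. The comparisons below are given with and without this sample, except where a sentence names the samples it describes.

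**Figure D1:**
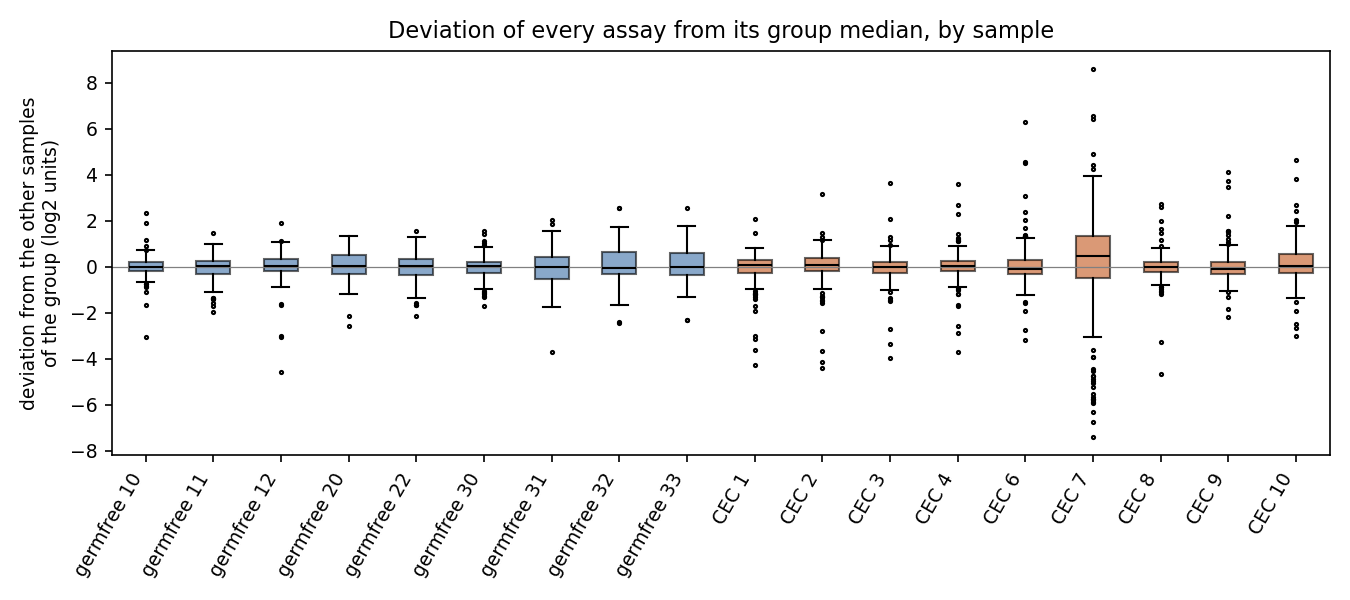
Deviation of each assay's log2 relative level from the median of the other samples of its group (for CEC, the samples other than replicate 7), 1 box per sample, with the quartiles, whiskers to 1.5 interquartile ranges and single assays beyond them. The box of CEC replicate 7 is the widest, with 34 assays more than 3 log2 units from the median.

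With all 18 samples, 8 of the 218 assays tested (3.67%) differed between CEC and germfree mucosa, 4 higher (1.83%) and 4 lower (1.83%) with CEC (limma, adjusted p under 0.05). Without CEC replicate 7, 49 of 216 (22.7%) differed, 23 higher (10.6%) and 26 lower (12%), and all 8 were among them in the same direction. At an unadjusted p under 0.05 limma gave 43 (19.7%) with all samples and 80 (37%) without CEC replicate 7. The counts also moved with other samples. With all samples, 11 of the 18 single omissions moved the count of 8 by more than 1.5 times. Besides CEC replicate 7 these were CEC replicates 6 and 9 and germfree replicates 10 and 11 (1 call left without any of them), germfree replicates 22 and 31 (2 calls), CEC replicate 10 and germfree replicate 30 (3 calls), CEC replicate 8 (4 calls) and germfree replicate 20 (5 calls). With CEC replicate 7 already out, the count of 49 became 27 without CEC replicate 9 and 31 without germfree replicate 12.

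Most changes were below a doubling. With all samples the 4 higher assays had log2 fold changes of 0.58 to 2.72 and the 4 lower ones of -0.88 to -0.60. The 23 assays higher without CEC replicate 7 had log2 fold changes of 0.33 to 2.95 with a median of 0.93, and 9 passed 1. The 26 lower ones ran from -1.82 to -0.31 with a median of -0.53, and 3 passed -1. Over all 216 assays the median was 0.01.

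The 41 assays called only without CEC replicate 7 had a larger standard error in 37 cases when it was included, and the error more than doubled in 13. Over the 49 calls the median standard error was 0.188 without the sample and 0.279 with it. The median size of the log2 fold change was 0.72 and 0.59. CEC replicate 7 lay on the opposite side of the germfree mean from the other CEC samples' change in 29 of the 49. Only 1 of the 49 had opposite signs in the fits. When samples were weighted by their quality in limma, CEC replicate 7 received a weight of 0.0509 and the others 0.535 to 3.02, and 65 of 218 assays were called, 28 higher and 37 lower.

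**Figure D2:**
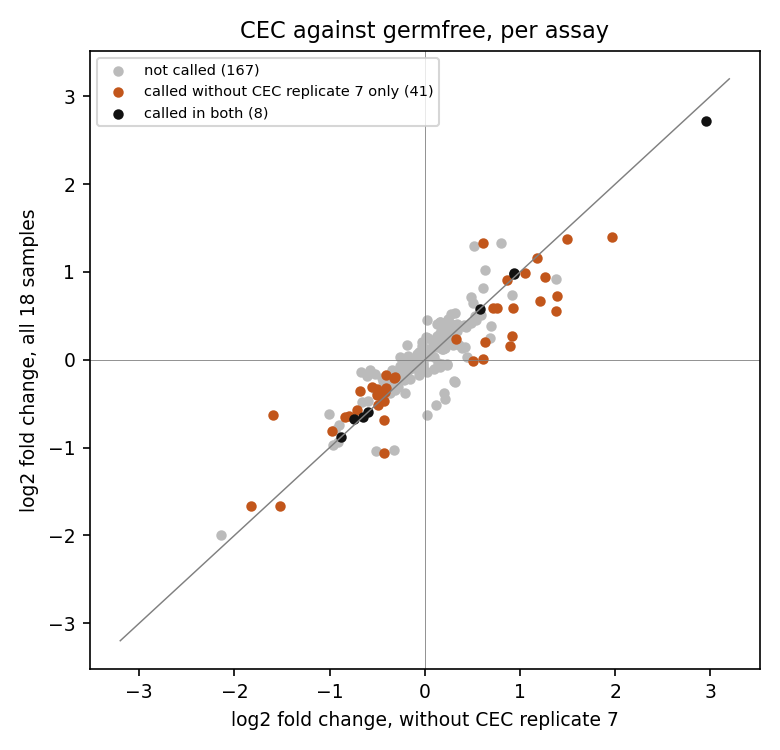
Log2 fold change of CEC over germfree for each assay tested in both fits, without CEC replicate 7 (x axis) and with all 18 samples (y axis), where the diagonal marks equal values. The 8 assays called in both fits lie near the diagonal, and many of the 41 called only without CEC replicate 7 lie closer to 0 on the y axis.

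The largest rise was that of Mm00470560_m1, from a germfree median log2 relative level of -2.60 (range -3.12 to -2.10) to a CEC median of -1.25 (range -2.19 to 3.29). Every CEC sample except replicate 2 lay above the highest germfree sample. The CEC samples were far from uniform, since 4 of them (replicates 6, 8, 9 and 10) lay between 1.48 and 3.29 and the other 5 at -1.25 or below. Over all samples the log2 fold change came to 2.72 ± 0.69 (SE; limma, adjusted p = 0.0397), or 6.60-fold. Omitting CEC replicate 7 gave 2.95 ± 0.69 (adjusted p = 0.00731), or 7.75-fold. The SD was 2.18 within CEC and 0.327 within germfree samples (n = 9 each). With all samples the call was lost when any 1 of 10 samples was left out (limma, adjusted p up to 0.0937), and without CEC replicate 7 it was kept at each of 17 further omissions.

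Mm00434268_m1 rose more evenly. Its germfree samples lay between -5.21 and -3.53 (median -4.51) and its CEC samples between -4.13 and -2.77 (median -3.47), with 6 of the 9 above every germfree sample. The log2 fold change was 0.99 ± 0.22 (SE; limma, adjusted p = 0.0258), close to a doubling, and 0.94 ± 0.22 (adjusted p = 0.00731) without CEC replicate 7. This is a late signal, at a mean Ct of 25.9 in germfree and 24.8 in CEC samples. With all samples it missed the threshold without CEC replicate 6 or 9 or germfree replicate 10 or 11 (limma, adjusted p up to 0.0636), and when the first and last 112 rows of the table were scaled separately (log2 fold change 0.76, adjusted p = 0.0529). The call was kept without CEC replicate 7 at each of 17 further omissions and with that scaling (adjusted p = 0.0253).

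The largest fall among the assays called in both fits was that of Mm00494803_m1, from 0.275 to 1.01 in germfree samples (median 0.729) to -0.832 to 0.417 in CEC samples (median -0.185). Of the CEC samples 8 lay below every germfree sample, and replicate 1 alone overlapped with them. Its log2 fold change of -0.88 ± 0.16 (SE; limma, adjusted p = 0.00544) was unaffected by CEC replicate 7, which lay within its group here, and was -0.88 ± 0.16 (adjusted p = 0.00276) without it. The call was kept when each sample was left out in turn. It was lost in the fit on all 4 groups (log2 fold change -0.81; limma, adjusted p = 0.379 with CEC replicate 7 and 0.298 without). That fit estimates the spread from the Nissle and conventional samples too, and scales to the assays measured in every sample of the 4 groups.

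Mm01611157_gH also fell, from germfree levels of 0.935 to 2.01 (median 1.5) to CEC levels of 0.395 to 1.29 (median 0.796). The highest CEC value was that of replicate 7, and without it every CEC sample lay below every germfree sample. That separation was seen in 2 of 216 assays (0.926%) without CEC replicate 7 and in 0 of 218 with it. The margin was narrow: the highest remaining CEC sample was at 0.934, and germfree replicates 20, 32 and 33 lay at 0.935 to 0.948 while the other 6 germfree samples lay at 1.22 or above. The log2 fold change was -0.68 ± 0.18 (SE; limma, adjusted p = 0.0429), and -0.75 ± 0.17 (adjusted p = 0.00731) without CEC replicate 7. With all samples the call was lost when any 1 of 9 samples was left out (limma, adjusted p up to 0.103), with median scaling (adjusted p = 0.0538) and with quantile normalization (adjusted p = 0.0592).

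**Figure D3:**
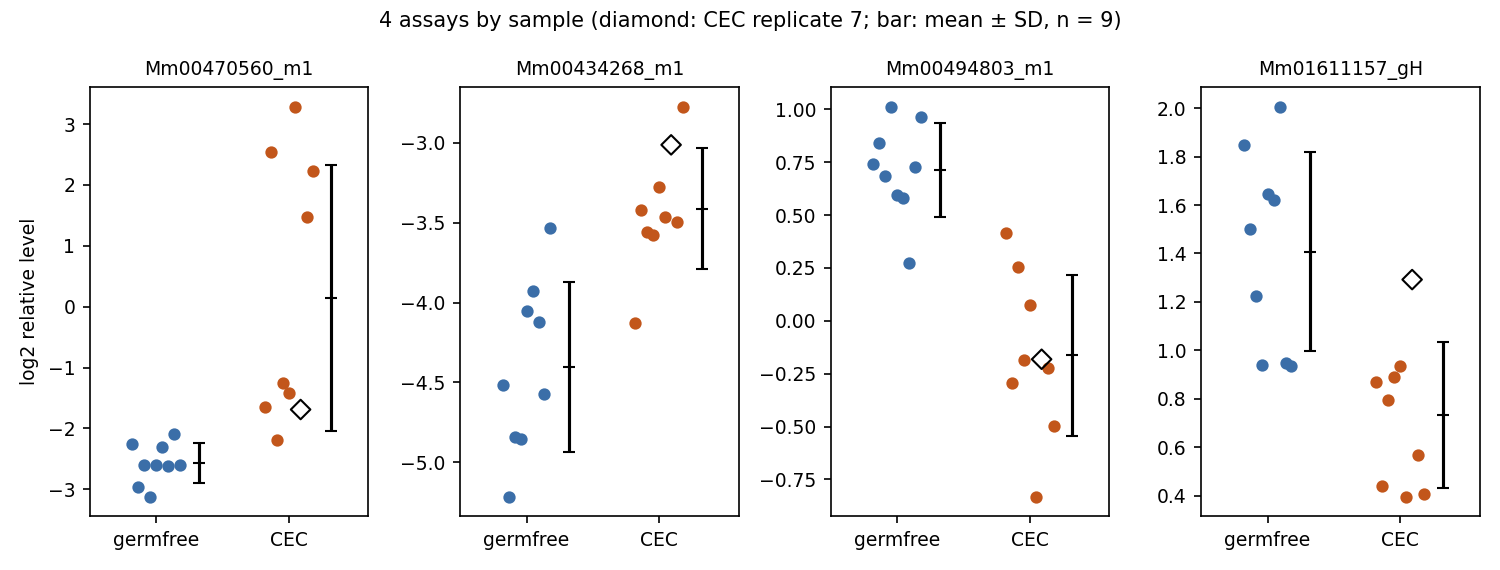
Log2 relative level of 4 assays in each of 9 germfree and 9 CEC samples, 1 point per sample, with the mean and SD (n = 9) as a bar; a diamond marks CEC replicate 7. Mm00470560_m1 is spread from -2.19 to 3.29 within CEC, while the other 3 assays move by smaller, more even amounts.

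The 49 assays called without CEC replicate 7 were not equally displaced in each CEC sample. Those past every germfree sample in the direction of the call numbered 39 in CEC replicates 9 and 10, 33 in replicate 6, 30 in replicate 8 and 29 in replicate 4. They numbered 22 in replicate 3, 17 in replicate 2 and 16 in replicate 1, and 15 in replicate 7, which had no part in choosing them. The 4 CEC samples with the most such assays were those with high Mm00470560_m1. Since the calls were chosen on these samples, the counts describe them and test nothing. Over all assays, the share outside the range of 8 germfree samples, on either side, was 44.6% in CEC replicate 9. It was 42.6% in replicate 10, 42.4% in replicate 6, 31.1% in replicate 4 and 30.6% in replicate 8. Replicates 3, 2 and 1 had 22.6%, 19.2% and 16.6%, and replicate 7 had 65.4%. Germfree samples, each set against its 8 fellows, had 4.35% to 44.4%.

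**Figure D4:**
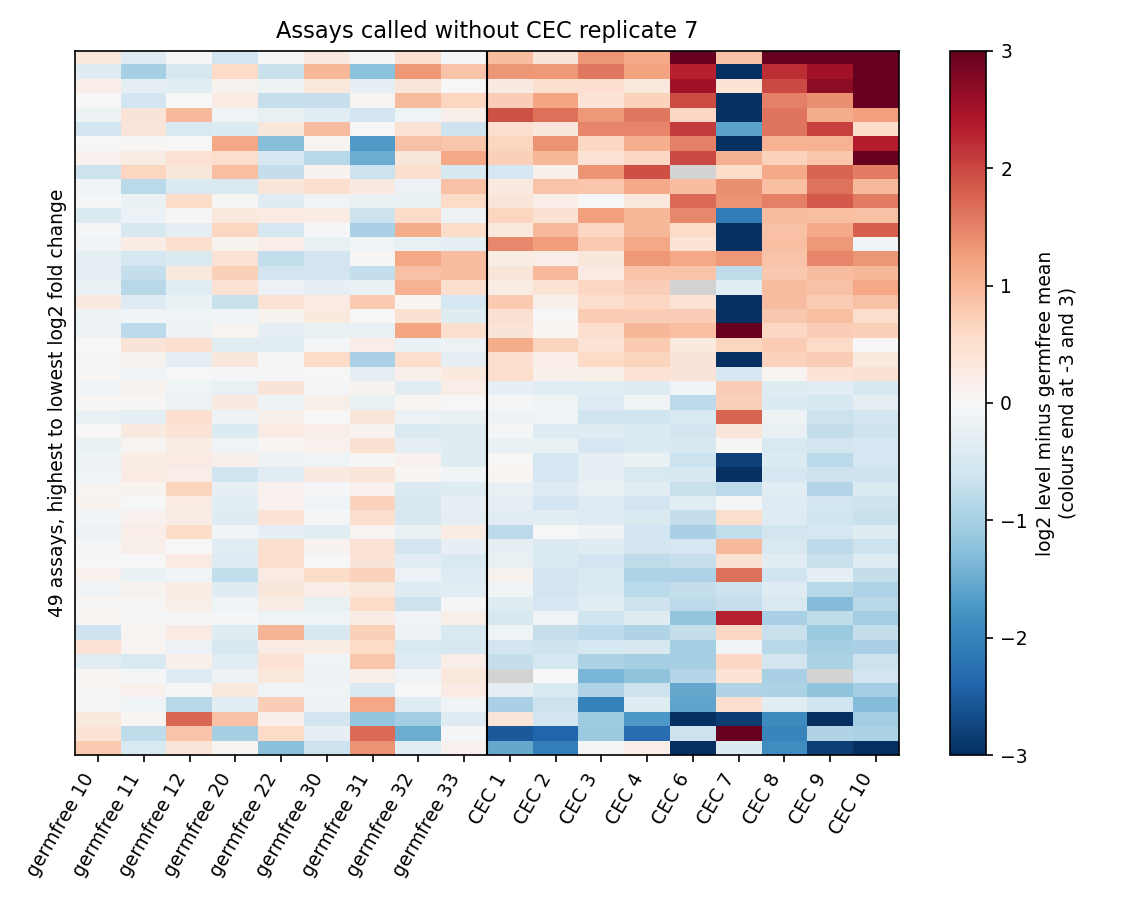
Log2 relative level minus the germfree mean in 18 samples (columns) for the 49 assays called without CEC replicate 7 (rows, ordered from the highest to the lowest log2 fold change); red is above and blue below the germfree mean, grey is undetermined, and colours end at -3 and 3. CEC replicates 9 and 10 show the change most fully, with 39 of the 49 past every germfree sample, and CEC replicate 7 departs from the pattern in many rows.

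Apart from CEC replicate 7, the CEC samples were no more variable than the germfree samples for most transcripts. The SD was larger in CEC than in germfree samples for 149 of 218 assays with all samples, and for 71 of 216 without CEC replicate 7. Without it the median SD was 0.34 in CEC and 0.417 in germfree samples. The CEC SD was then more than 2 times the germfree SD in 12 assays, Mm00470560_m1 among them, and the germfree SD more than 2 times the CEC SD in 28. Called assays occurred across the range of Ct. They were, without CEC replicate 7, 14 of the 72 assays with the lowest germfree Ct (19.4%), 18 of the middle 72 (25%) and 17 of the 72 with the highest (23.6%). By probe design, calls made up 38 of 171 assays whose ID ends in m (22.2%), in which the probe spans an exon junction, 7 of 22 ending in g (31.8%) and 4 of 23 ending in s (17.4%), in which primers and probe lie within a single exon. With all samples the 8 calls were 1 of 73, 4 of 72 and 3 of 73 assays from the lowest to the highest germfree Ct, and 6 of 173, 2 of 22 and 0 of 23 by the endings m, g and s.

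The direction of the calls went with the position of the assay in the deposited table, an order the labels do not explain. Without CEC replicate 7, calls made up 21 of 105 assays tested in the first 112 rows (20%) and 28 of 111 in the last (25.2%). Of these, 17 of the 21 in the first 112 rows were higher with CEC, and 22 of the 28 in the last 112 rows were lower. The median log2 fold change was 0.18 in the first 112 rows and -0.20 in the last. With all samples 3 of 4 calls in the first 112 rows were higher and 3 of 4 in the last were lower, with medians over all assays there of 0.18 and -0.14. All 8 calls made in rows 1 to 28 without CEC replicate 7 were higher, and in rows 113 to 168 all but 1 of 15 were lower. Other sections were mixed, with 6 higher and 4 lower in rows 57 to 84, and 4 higher and 3 lower in rows 169 to 196. Over all 28 assays of rows 1 to 28 the median log2 fold change was 0.31 without CEC replicate 7 and 0.32 with it. The shift was also present between samples of the same group. Rows 1 to 28 held 10 assays used for scaling, most of them among the 8 calls there, so they do not stand for the whole section. Relative to the germfree mean, their median Ct was -1.19 to 0.877 cycles in germfree samples, -1.43 to -0.322 in 8 CEC samples and 2.82 in CEC replicate 7. The difference between the groups in this value did not pass the threshold, with an exact permutation p of 0.00374 without CEC replicate 7 (two-sided, adjusted p = 0.0674) and of 0.281 with it (adjusted p = 0.46). Most of the 10 assays were called on these same samples, so the test cannot tell a shift of the section from changes of its assays. The difference between the first and last 112 rows was -0.336 ± 0.252 cycles (SD, n = 8) with CEC, without replicate 7, and 0.0024 ± 0.465 (SD, n = 9) in germfree samples (exact permutation p = 0.0881, adjusted p = 0.198). With replicate 7 it was -0.322 ± 0.24 cycles with CEC (SD, n = 9; exact permutation p = 0.0812, adjusted p = 0.198). The adjustment ran over 18 such permutation tests of table position, chosen after seeing the data, of which 4 had an unadjusted p under 0.05 and 0 an adjusted one.

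**Figure D5:**
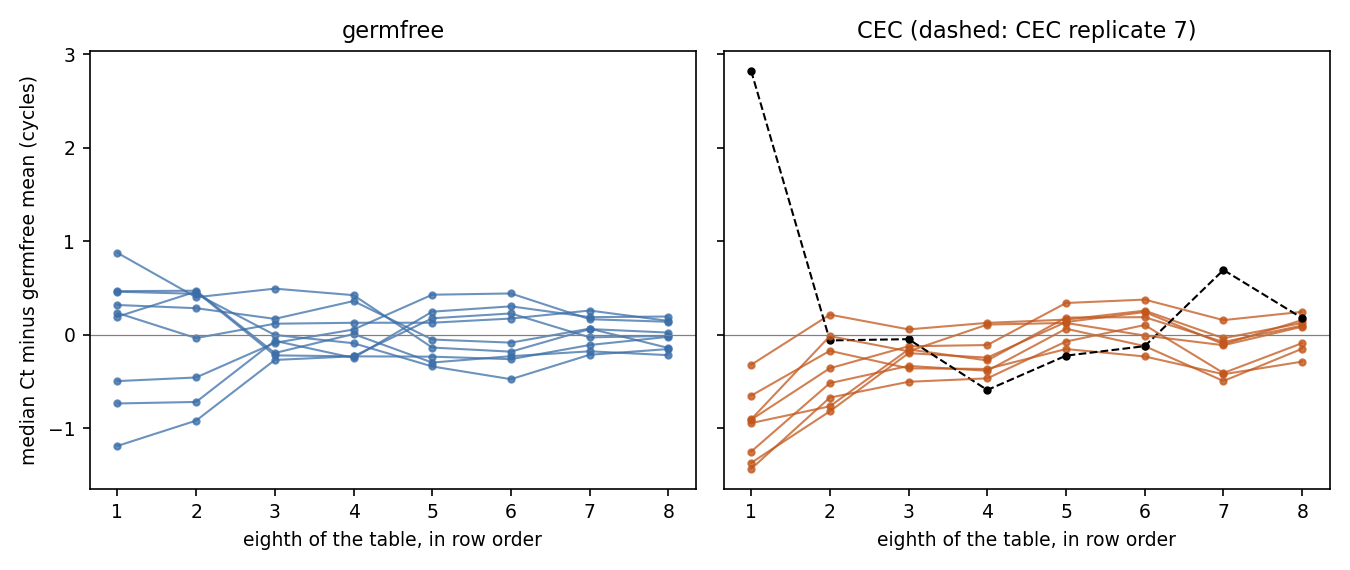
Median Ct of the scaling assays minus their germfree mean, in cycles, for 8 successive sections of 28 rows of the table; 1 line per sample, germfree on the left and CEC on the right, with CEC replicate 7 dashed. Samples differ most in the first section, from -1.19 to 0.877 in germfree and from -1.43 to 2.82 in CEC samples. That section holds 10 scaling assays, most of them called higher without CEC replicate 7.

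Germfree replicates 20, 32 and 33, which had the lowest Mm01611157_gH levels of their group, were also those with the lowest difference between the first and last 112 rows, at -0.635 to -0.495 cycles, while the other 6 lay at -0.05 or above. Mm01611157_gH was not alone in this. The same germfree samples were the highest of their group in calls such as Mm01285814_g1 and Mm00480045_m1, which were higher with CEC. They were the lowest in calls such as Mm01278617_m1 and Mm01253561_m1, which were lower with CEC. Mm00470560_m1 and Mm00494803_m1 did not show this order. Calls can thus share variation already present among germfree samples and are not all separate results. Scaling each section of 28 rows by its own scaling assays removes any shift those assays share, a change with CEC included. In rows 1 to 28 there were 10 scaling assays, most of them called higher without CEC replicate 7. Calls in those rows went from 8 to 20 of 28 under this scaling. With the sections scaled so, the log2 fold change of Mm01611157_gH without CEC replicate 7 was -0.48 (limma, adjusted p = 0.0061), that of Mm00494803_m1 -1.08 (adjusted p = 0.000269), that of Mm00434268_m1 0.89 (adjusted p = 0.00329) and that of Mm00470560_m1 2.75 (adjusted p = 0.00502). With all samples the values in the same order were -0.44 (limma, adjusted p = 0.037), -1.07 (adjusted p = 0.000354), 0.83 (adjusted p = 0.0284) and 2.54 (adjusted p = 0.0309). This scaling called, without CEC replicate 7, 81 assays, 25 higher and 56 lower, of which 35 were among the 49, and with all samples 13, 6 higher and 7 lower. Scaling the first and last 112 rows separately called 57, 28 higher and 29 lower, with 36 of the 49, and 9 with all samples, 4 higher and 5 lower. What part the position in the table had in the single calls was not tested beyond these scalings.

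The balance of higher and lower calls thus depended on the scaling, while a smaller set was called under each of the 6 scalings compared here. The fit on all 4 groups, which has a scaling of its own, is not among these 6. Without CEC replicate 7, median scaling gave 16 higher and 43 lower, and raw Ct 29 higher and 9 lower. Raw Ct moved the median log2 fold change of all assays to 0.17. Under all 6 scalings (mean, median, raw Ct, quantile, 112 rows and 28 rows) 11 assays were higher and 8 lower with CEC in every case, the 4 named assays among them. Their log2 fold changes ran from 0.58 to 2.95 and from -1.82 to -0.65, and 7 of the higher and 2 of the lower ones passed a doubling or halving. With all 18 samples, 1 higher (Mm00470560_m1) and 2 lower assays were called under all 6.

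For most assays the data bound the difference. Without CEC replicate 7 the 95% confidence interval lay within 1 log2 unit of 0 for 158 of 216 assays and reached past it for 58, of which 30 were not called. With all samples it lay within that range for 139 of 218. The median interval reached 0.416 log2 units either side without CEC replicate 7 and 0.54 with it, and an assay that missed the threshold is not shown to be unchanged.

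No transcript was detected in one group and missing in the other. Of the 41 assays with an undetermined well among the 18 samples, 0 differed in the number of samples with a Ct (Fisher's exact test; smallest unadjusted p = 0.153, 0 under 0.05), and 19 were undetermined only in CEC replicate 6. Without CEC replicates 6 and 7, 0 of 22 such assays differed (Fisher's exact test, smallest unadjusted p = 0.175). At these group sizes an assay undetermined in only a few samples, or in all of them, could not pass under 0.05 whatever its pattern. That holds for most of these assays, so the counts do not show equal detection. The 6 assays not tested for level included 2 without a Ct in any of the 18 samples. Another was measured in 7 CEC and 3 germfree samples.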

How the data were processed

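RNA was isolated with a mirVana kit and measured on customised TaqMan OpenArray cards, per the labels' protocols. The deposited score is a raw Ct without normalization, per the file headers, which call the table a truncated example. A Ct of 40, in 146 of 4032 wells (3.62%), was treated as missing; measured values lay between 11.88 and 31.91. Columns were matched to samples by title. The sources used here do not state the PCR efficiency or threshold.

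Assays measured in at least 5 samples of each group were tested with limma 3.58.1 in R 4.3.3 (lmFit, eBayes, 2 groups, two-sided, Benjamini-Hochberg over all assays tested, threshold 0.05). The step was tested on simulated data with independent normal values and the germfree SD in both groups. That simulation held no outlying sample, no unequal spread and no shift shared by rows, so it does not cover these features of the data. The scaling assays were the same 183 with and without CEC replicate 7. Exact permutation and Fisher's tests used Python 3.11.15. The number of assays measured stands in for depth. The 4 named assays are the 2 largest changes each way, ranked without CEC replicate 7, among the calls with all 18 samples. The comparison, lists and alternatives were chosen with earlier results of these data known. The gene lists and cell type markers could not be tested, because the assays have no gene names. Alternatives covered scaling, missing wells, filters, the fit, the test and each sample left out.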

Additional observations from a re-analysis of the deposited data

Results flagged for a closer look

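Within each group of 9 samples, 23 sets of values were screened for a sample far from the others; chance alone puts about 1 in 20 such sets past the limit. CEC replicate 7 stood apart by its median absolute deviation from its group (1.10 log2 units), its 34 assays more than 3 log2 units away and its Pearson r of 0.751 with the germfree mean. CEC replicate 6 stood apart by its 198 measured assays. Germfree replicate 12 stood apart with 3 assays more than 3 log2 units from the other germfree samples. None of the 4 named assays held such a sample in either group.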

How the results depend on the processing

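With all 18 samples the count of 8 calls became 5 with median scaling, 65 with sample quality weights and 13 with each section of 28 rows scaled by itself (chosen after seeing the data). It ran from 1 to 49 when each sample was left out in turn, with 49 without CEC replicate 7. Without CEC replicate 7 the count of 49 became 81 with the sections of 28 rows, and ran from 27 (without CEC replicate 9) to 58 (without germfree replicate 32) over single omissions, with 31 without germfree replicate 12. Under the other alternatives it stayed between 37 and 68, with 37 without CEC replicate 6 and in an exact rank sum test chosen after seeing the data. With all samples quantile normalization gave 5 higher and 3 lower and median scaling 2 and 3. No named assay changed direction under any alternative run. No paired analysis was run, because the titles pair no CEC sample with a germfree sample. The 1 replicate number that the groups share does not make a pair. Scaling to reference genes was not run, since the assays have no gene names. The depth limit is the 5 measured samples an assay needs per group.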

Other observations

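Samples also differed in rows 1 to 28 within the groups not compared here. The scaling assays of rows 1 to 28 had a median Ct, relative to the germfree mean, of -1.14 to 0.59 cycles in 9 Nissle samples and of -0.92 to 0.05 in 9 conventional samples. The median over samples was -0.68 for Nissle and -0.17 for conventional samples, beside -0.91 for all 9 CEC and 0.23 for the germfree samples. Whether these values go with colonisation or with table position was not tested.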
